A study of Sus scrofa with 11 samples.

Results

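C1R, C7 and CD59 stand at the start, near the end and at the last brake of the complement cascade, and their transcripts were followed here in the ischemic left ventricle of pigs. Complement is a chain of plasma and cell surface proteins that marks targets and can end in a pore, the membrane attack complex. C1r is the serine protease of the C1 complex that, once C1q has bound its target, cleaves and activates its partner protease C1s. C7 joins C5b and C6 and lets the growing complex insert into a membrane, where C8 and C9 complete the pore. CD59 is a lipid-anchored surface protein that binds C8 and C9 in the forming complex and blocks completion of the pore. Most plasma complement is made by the liver, and C1r and C7 are also made by stromal cells in other tissues, whereas CD59 is carried by nearly all cells.

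The 3 genes were taken as those probe sets (groups of probes read as 1 value) whose only gene symbol in the platform annotation is C1R, C7 or CD59. This gave 3 probe sets, 1 per gene, of 27558 on the array, and 3 genes of the 12217 that a single-symbol probe set names. The groups were HFD+EV (3 arrays), HFD (2 arrays), ND+EV (3 arrays) and ND (3 arrays), 11 in all. All pigs were male Yorkshire swine on a high fat diet (HFD) or a normal diet (ND) for 12 weeks, and every one of them carried an ameroid constrictor, a ring that slowly closes a vessel, on the left circumflex coronary artery. HFD+EV and ND+EV hearts had extracellular vesicles (EV, membrane particles shed by cells) injected into the ischemic muscle, HFD and ND hearts had vehicle, and tissue was taken 5 weeks later. The source of the EV and the age of the pigs are not given in the labels, no heart without the constrictor is among the arrays, and the title of the series concerns angiogenesis rather than complement.

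Every value is log2 signal of a probe set as deposited. No array was identical to another, and over all probe sets pairwise correlations of arrays ran from 0.929 to 0.985, while ND replicates 1 and 3 stood lowest, at averages of 0.947 and 0.952 with the other arrays against 0.965 to 0.972 for each remaining array. Cardiomyocyte markers were high, as in heart muscle, with a median log2 signal of 11.89 over the 7 markers measured and 13.39 for ACTC1, cardiac actin. All 3 genes passed the filter on low signal. C1R had a mean log2 signal of 6.76, at percentile 89.7 of all probe sets, C7 5.52 at percentile 73.5, and CD59 7.45 at percentile 94.3. The probes differ in brightness, so these levels do not rank the 3 transcripts against each other. In the Sscrofa11.1 assembly C1R lies on chromosome 5 between C1RL and C1S, C7 on chromosome 16 between CARD6 and MROH2B, and CD59 on chromosome 2 between FBXO3 and C2H11orf91.

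C1R, the initiating protease, was lowest in ND hearts. Its log2 signal was 6.62, 7.29 and 7.30 in HFD+EV hearts, 6.79 and 6.80 in HFD hearts, 6.95, 6.89 and 6.81 in ND+EV hearts, and 5.95, 6.54 and 6.38 in ND hearts. All 8 arrays of the other groups lay above the 3 ND arrays, though the share of all probe sets with this split was not counted. The group means were 7.07 ± 0.39 in HFD+EV hearts, 6.80 ± 0.003 in HFD hearts, 6.89 ± 0.07 in ND+EV hearts and 6.29 ± 0.31 in ND hearts (SD, n = 3, 2, 3 and 3). The HFD+EV group was the most spread of these, since its replicate 1 lay 0.67 below the next array of the group. In the order of means, the arrays of HFD+EV and ND+EV overlapped. The mean of ND+EV lay 0.09 above that of HFD with no overlap, and the mean of HFD lay 0.51 above that of ND with no overlap. The nearest HFD and ND arrays were 0.25 apart, and HFD lay wholly above ND in 19.4% of all probe sets. ND+EV and HFD differ in both diet and injection, and how many probe sets separate them was not counted.

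C7, the terminal component, was lowest in ND hearts and highest on 1 HFD array. Its log2 signal was 5.78, 5.52 and 5.93 in HFD+EV hearts, 5.72 and 6.73 in HFD hearts, 5.15, 5.48 and 5.48 in ND+EV hearts, and 4.87, 4.94 and 5.14 in ND hearts. HFD replicate 2 was 0.80 above the next highest of the 11 arrays. The group means were 5.74 ± 0.21 in HFD+EV hearts, 6.23 ± 0.71 in HFD hearts, 5.37 ± 0.19 in ND+EV hearts and 4.98 ± 0.14 in ND hearts (SD, n = 3, 2, 3 and 3). Both high fat diet groups lay wholly above both normal diet groups, by 0.04 between the nearest arrays. The share of all probe sets with this split was not counted. The HFD and HFD+EV arrays overlapped, while HFD+EV and ND+EV, and ND+EV and ND, did not.

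CD59, the inhibitor, varied little on 10 arrays and was far lower on 1. Its log2 signal was 7.27, 7.63 and 7.56 in HFD+EV hearts, 7.66 and 7.70 in HFD hearts, 7.76, 7.63 and 7.66 in ND+EV hearts, and 6.20, 7.37 and 7.56 in ND hearts. ND replicate 1 was 1.07 below the next lowest array. The group means were 7.49 ± 0.19 in HFD+EV hearts, 7.68 ± 0.02 in HFD hearts, 7.68 ± 0.07 in ND+EV hearts and 7.04 ± 0.73 in ND hearts (SD, n = 3, 2, 3 and 3). The arrays of ND+EV and HFD overlapped, as did those of HFD+EV and ND. The mean of HFD lay 0.19 above that of HFD+EV with no overlap, though the nearest arrays were 0.04 apart. HFD+EV lay wholly below HFD in 11% of all probe sets. Exact ties occur in these values, as for 12882 probe sets of the array: C7 had 5.48 on both ND+EV replicates 2 and 3, and CD59 had 7.56 on both HFD+EV replicate 3 and ND replicate 3.

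**Figure D1:**
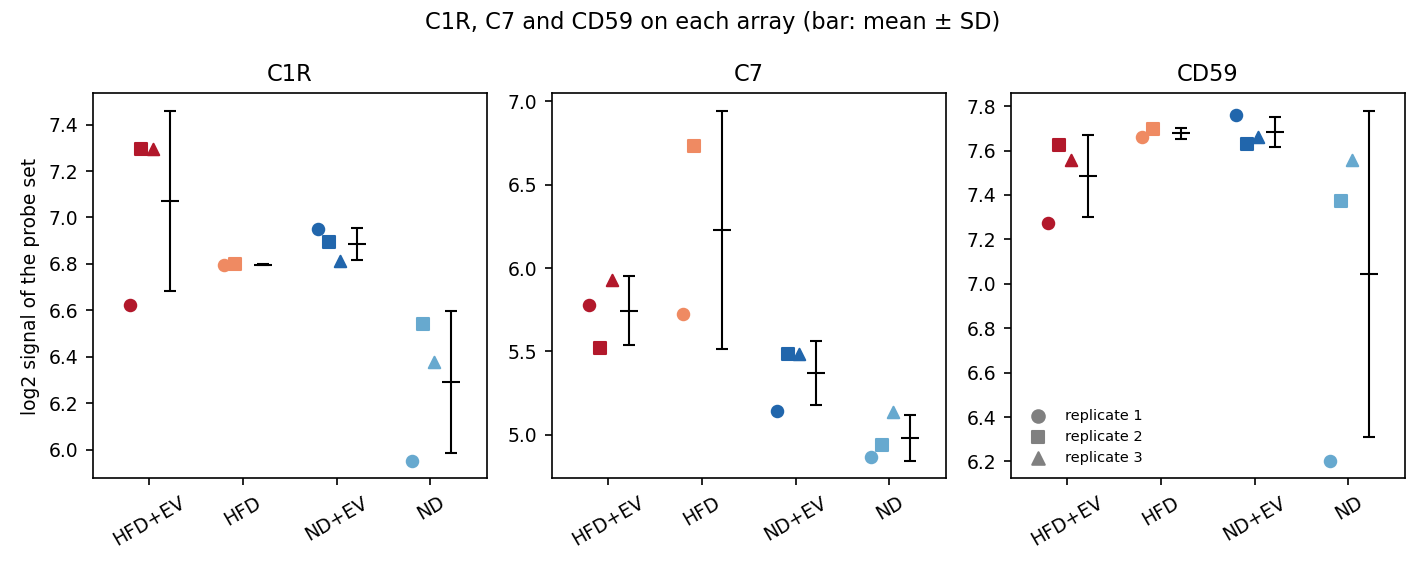
Log2 signal of C1R, C7 and CD59 (y axis, own range in each panel) on each of the 11 arrays by group (x axis), with marker shape for the replicate number and bars for mean ± SD. The ND arrays are the lowest for C1R and C7, HFD replicate 2 is the highest for C7 at 6.73, and ND replicate 1 is far below the others for CD59 at 6.20.

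Differences between groups were tested with limma, a linear model fitted over 20668 probe sets, and called at a Benjamini-Hochberg adjusted p under 0.05. None of the 3 genes passed in any of the 7 comparisons fitted. Since these are whole tissue samples, fewer cells of a type and less RNA per cell cannot be told apart in any of them. Replicates are biological by the sample titles, though the labels name no animals, so p-values measure the spread between these samples. The comparisons below share arrays: ND enters both the EV comparison under the normal diet and the diet comparison with vehicle.

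The comparison of ND+EV with ND asks what the EV injection did under the normal diet. C1R and CD59 had similar differences of about 1.5-fold, and C7 a smaller one, all with ND+EV above ND on every array. C1R was 0.60 higher in ND+EV on the log2 scale (SE 0.20, 95% interval 0.15 to 1.04, a fold of 1.51), with an adjusted p of 0.549 by limma. CD59 was 0.64 higher (SE 0.29, interval 0.01 to 1.27, a fold of 1.56; adjusted p 0.582). C7 was 0.39 higher (SE 0.23, interval -0.12 to 0.90, a fold of 1.31; adjusted p 0.645). By unadjusted p, C1R ranked 468 and CD59 1675 of 20668 probe sets, with p of 0.0129 and 0.0473 in the limma fit.

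In ND+EV against ND limma called 0% of probe sets, with 1758 at an unadjusted p under 0.05. The ND+EV arrays lay wholly above the ND arrays for all 3 genes, for 6.32% of all probe sets, and wholly below for 5.31%. ND replicate 1 carried much of the CD59 value: without that array CD59 was 0.22 higher in ND+EV, C1R 0.43 and C7 0.33. Without both ND replicates 1 and 3 the differences were 0.31 for CD59, 0.34 for C1R and 0.43 for C7.

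The comparison of HFD+EV with HFD asks the same of the EV injection under the high fat diet, where HFD has 2 arrays. C1R was higher in HFD+EV and C7 and CD59 lower, and each interval included 0. C1R was 0.27 higher in HFD+EV (SE 0.22, interval -0.22 to 0.77; adjusted p 0.940 by limma). C7 was 0.48 lower, with a log2 difference of -0.48 (SE 0.26, interval -1.05 to 0.09; adjusted p 0.906). CD59 had a log2 difference of -0.19 (SE 0.32, interval -0.90 to 0.51; adjusted p 0.987), and each of its 3 HFD+EV arrays was below both HFD arrays.

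For C1R and C7 the arrays of HFD+EV and HFD overlapped. Wholly lower HFD+EV arrays, as for CD59, were found in 11% of all probe sets and wholly higher ones in 12.2%, and limma called 0%, with 1146 at an unadjusted p under 0.05. The C7 value rests on HFD replicate 2: without it the difference was 0.02, and without HFD replicate 1 it was -0.99. CD59 stood at -0.09 without HFD+EV replicate 1. C1R stood at 0.50 without HFD+EV replicate 1 and at 0.16 without either replicate 2 or replicate 3 of that group.

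The comparison of HFD with ND asks how the diet alone relates to these transcripts after vehicle. All 3 genes were higher in HFD on every array, and C7 by the most. C7 was 1.25 higher (SE 0.26, interval 0.68 to 1.82, a fold of 2.37), which ranked 207 of 20668 probe sets by p and just missed the threshold, with an adjusted p of 0.057 by limma. C1R was 0.51 higher (SE 0.22, interval 0.01 to 1.0, a fold of 1.42; adjusted p 0.199). CD59 was 0.63 higher (SE 0.32, interval -0.07 to 1.34, a fold of 1.55; adjusted p 0.252).

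In HFD against ND limma called 0.735% of probe sets, 106 higher and 46 lower, none of them C1R, C7 or CD59. There were 4963 of 20668 at an unadjusted p under 0.05, and C1R ranked 4702 by that p. The smallest adjusted p of any probe set was 0.047 by limma, so the called probe sets also lay near the threshold. Arrays wholly higher in HFD, as for all 3 genes, were found in 19.4% of probe sets and wholly lower ones in 19.7%, so that with 2 arrays against 3 a lack of overlap was common. The size of the C7 difference depended on which HFD array was used, 0.74 without replicate 2 (adjusted p 0.265) and 1.75 without replicate 1 (adjusted p 0.043), and over all alternatives its adjusted p ran from 0.028 to 0.311. The CD59 difference was 0.21 without ND replicate 1. The C1R difference was 0.34 without that array, 0.25 without ND replicates 1 and 3, and 0.26 after cyclic loess normalization.

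The comparison of HFD+EV with ND+EV asks how the diet relates to the 3 genes once EV had been injected. C7 was 0.37 higher in HFD+EV (SE 0.23, interval -0.13 to 0.88; adjusted p 0.745 by limma), with its lowest HFD+EV array 0.04 above the highest ND+EV array. C1R was 0.18 higher (SE 0.20, interval -0.26 to 0.63; adjusted p 0.854), with overlapping arrays. CD59 had a log2 difference of -0.20 (SE 0.29, interval -0.83 to 0.43; adjusted p 0.887), with the highest HFD+EV array 0.0046 below the lowest ND+EV array.

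Here limma called 0% of probe sets, with 1522 at an unadjusted p under 0.05. Wholly higher arrays, as for C7, were found in 7.58% of probe sets and wholly lower ones, as for CD59, in 6.93%. Without HFD+EV replicate 1 the C1R difference was 0.41 and the CD59 difference -0.09, and without HFD+EV replicate 2 or replicate 3 the C1R difference was 0.07.

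**Figure D2:**
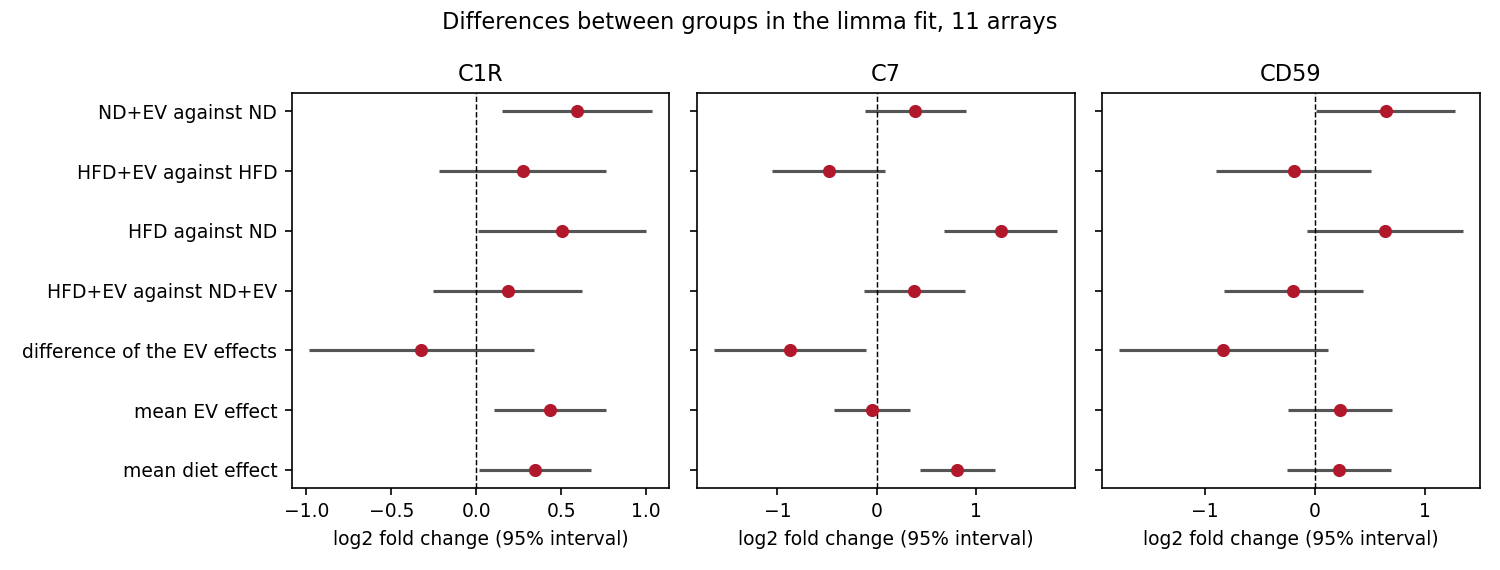
Log2 fold change (x axis, own range in each panel) with its 95% interval for C1R, C7 and CD59 in the 7 comparisons of the limma fit over 11 arrays (y axis). The C7 intervals of HFD against ND and of the mean diet effect, 0.68 to 1.82 and 0.43 to 1.19, lie farthest from 0, and no point passed the adjusted threshold.

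Whether the EV injection acted differently under the diets was tested as the EV difference under the high fat diet minus that under the normal diet. It was below 0 for all 3 genes. C7 had -0.87 (SE 0.35, interval -1.64 to -0.11; adjusted p 0.572 by limma), CD59 -0.83 (SE 0.43, interval -1.78 to 0.11; adjusted p 0.615) and C1R -0.32 (SE 0.30, interval -0.98 to 0.34; adjusted p 0.763). For this contrast limma called 0% of probe sets, with 1740 at an unadjusted p under 0.05. The value of C7 was -0.37 without HFD replicate 2 and -1.38 without HFD replicate 1, that of CD59 -0.41 without ND replicate 1, and that of C1R -0.15 without ND replicate 1 and -0.10 without HFD+EV replicate 1.

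Averaged over both diets, the EV arrays were 0.43 above the vehicle arrays for C1R (SE 0.15, interval 0.10 to 0.77; adjusted p 0.857 by limma, rank 357 of 20668), which was the only one of the 3 whose interval left out 0. CD59 averaged 0.22 (SE 0.21; adjusted p 0.963) and C7 -0.05 (SE 0.17; adjusted p 0.982). The share called was 0%, with 1120 probe sets at an unadjusted p under 0.05. Without ND replicate 1 the CD59 average was 0.01.

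Averaged over both injections, the high fat diet arrays were 0.81 above the normal diet arrays for C7 (SE 0.17, interval 0.43 to 1.19, a fold of 1.75), with an adjusted p of 0.052 by limma and rank 286 of 20668. C1R averaged 0.35 (SE 0.15, interval 0.01 to 0.68; adjusted p 0.188) and CD59 0.22 (SE 0.21, interval -0.26 to 0.69; adjusted p 0.535). In this comparison limma called 1.17% of probe sets, 178 higher and 64 lower, with 5108 at an unadjusted p under 0.05. C1R ranked 4667 by that p, and the smallest adjusted p of any probe set was 0.046 by limma. The CD59 average was 0.01 without ND replicate 1, and the C1R average 0.17 after cyclic loess normalization. For C7 the adjusted p ran from 0.029 to 0.185 over all alternatives, so that its side of the threshold depended on the setting.

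**Figure D3:**
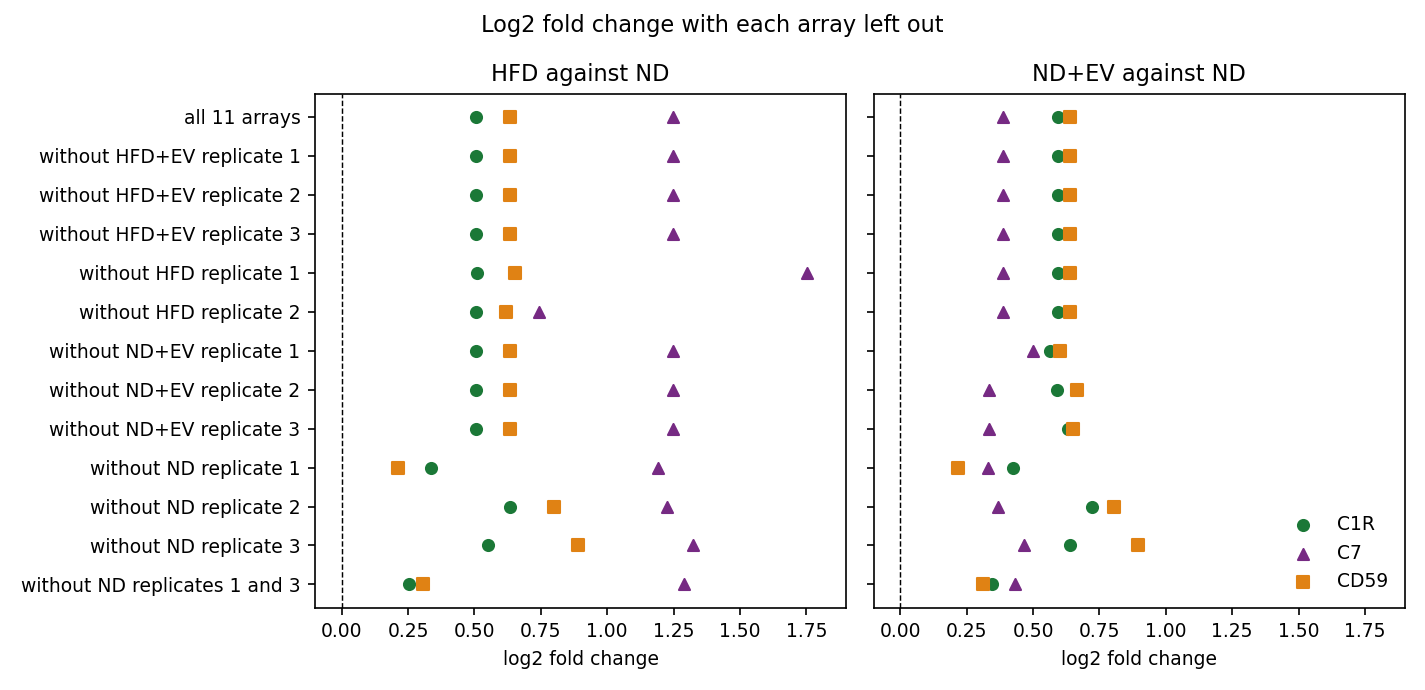
Log2 fold change (x axis) of C1R, C7 and CD59 in HFD against ND and in ND+EV against ND with all 11 arrays and with each array, or ND replicates 1 and 3 together, left out (y axis). C7 in HFD against ND moves between 0.74 and 1.75 with the HFD array left out, and CD59 moves to 0.21 and 0.22 in the 2 comparisons without ND replicate 1.

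The 3 genes were compared with each other over the 11 arrays, as 3 pairs. The permutations moved values freely over all arrays, so their p-values take no account of the groups. C1R and CD59 had a Pearson r of 0.749 (permutation p 0.0111, adjusted 0.0333 over the pairs) and a Spearman rho of 0.515 (permutation p 0.108, adjusted 0.162). This r was not particular to the pair: CD59 ranked 559 of 9737 genes by r with C1R, and C1R ranked 448 by r with CD59. Without the 2 arrays farthest from the median of C1R, ND replicate 1 and HFD+EV replicate 3, r was 0.521, and without ND replicate 1 alone it was 0.407, so the relation rests on few arrays. Within groups, with each group's mean subtracted, it was 0.740, ND replicate 1 included.

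C1R and C7 had r 0.469 (permutation p 0.144, adjusted 0.144) and rho 0.524 (permutation p 0.102, adjusted 0.162), with r 0.189 without the 2 farthest arrays and -0.003 within groups. C7 and CD59 had r 0.441 (permutation p 0.143, adjusted 0.144) and rho 0.347 (permutation p 0.294, adjusted 0.294), with r -0.06 without the 2 farthest arrays and 0.139 within groups. Within groups, with ND replicate 1 included, C7 had a lower r with both C1R and CD59 than those 2 had with each other. Without that array, and with group means left in, r was 0.407 for C1R and CD59, 0.283 for C1R and C7 and 0.182 for C7 and CD59. The r within groups was not computed without it, so the contrast may rest on that array.

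The genes with the most similar pattern over the 11 arrays were other genes for each of the 3, given here as a description in which each r shares the same arrays. For C1R they were EPS8, an adaptor of growth factor signalling to actin (r 0.962), NDUFV2, a subunit of respiratory complex I (0.944), LMAN2, a cargo lectin of the secretory pathway (0.940), RNF130, a ubiquitin ligase (0.934), and PSMB7, a proteasome subunit (0.933). For C7 they were UBE2Q1, a ubiquitin-conjugating enzyme (r 0.954), CALCRL, the receptor for adrenomedullin and CGRP (0.927), NKG7, a protein of cytotoxic granules (0.926), SEC24D, a vesicle coat protein (0.926), and RAB6A, a GTPase of the Golgi (0.919). For CD59 they were ELOB, elongin B (r 0.982), UBE2D4, a ubiquitin-conjugating enzyme (0.981), RAD21, a cohesin subunit (0.974), TUBA1B, an alpha tubulin (0.969), and POLR2J, an RNA polymerase II subunit (0.959). Within groups these correlations ran from 0.833 to 0.934 for C1R, from 0.751 to 0.829 for C7 and from 0.963 to 0.981 for CD59. ND replicate 1, far below the other arrays for CD59, and HFD replicate 2, 0.80 above the next array for C7, were included in them. They were not computed without either array and may rest on it.

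The rest of the cascade was read from a list of 54 complement genes, of which 31 had a probe set with a single symbol and 24 passed the filter, C1R, C7 and CD59 included. None of the 24 passed the adjusted threshold in any comparison. In HFD against ND 14 were higher and 10 lower, with a median log2 difference of 0.06 beside 0.04 over all 9738 genes tested. In ND+EV against ND 16 were higher and 8 lower (median 0.06 beside 0.01), in HFD+EV against HFD 12 and 12 (0.03 beside -0.02), and for HFD+EV set against ND+EV 14 and 10 (0.08 beside 0.02). The list's median in HFD against ND depended on the filter on low signal, at -0.02 with none and 0.37 with the lowest 50% left out.

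Beside C1R stand the chains of C1q, the recognition part of the C1 complex, and C1S, its second protease. C1QB, which had the highest r with C1R among them (0.871), had 7.83, 8.82 and 9.31 in HFD+EV hearts, 8.32 and 8.35 in HFD hearts, 8.03, 8.50 and 8.56 in ND+EV hearts, and 6.11, 7.21 and 8.30 in ND hearts, in order of level. By r with C1R, C1QB ranked 87 of 9737 genes. Both genes were lowest on ND replicate 1, and their r was not computed without that array. C1QB was 1.16 higher in ND+EV than in ND (SE 0.49, adjusted p 0.575 by limma) and 1.12 higher in HFD than in ND (SE 0.55, adjusted p 0.239). A second probe set of C1QB gave 0.80 and 0.47 in these comparisons, and its sign differed from that of the first in the diet comparison with EV, -0.01 beside 0.29.

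C1S, the gene next to C1R on chromosome 5, was 0.32 higher in HFD than in ND (adjusted p 0.309 by limma) and 0.05 higher in ND+EV than in ND (adjusted p 0.944), where C1R had 0.51 and 0.60. Its r with C1R was 0.667. C1QA was 0.42 higher in HFD than in ND and 0.31 higher in ND+EV than in ND, and C1QC 0.03 and 0.15. SERPING1, the inhibitor that removes C1r and C1s from the complex, was 0.46 higher in HFD than in ND (adjusted p 0.245 by limma) and 0.11 higher in ND+EV than in ND. Of the 7 initiation genes measured, C1R included, 6 were higher in HFD than in ND and 6 had ND+EV above ND. Their medians were 0.42 and 0.31, beside 0.04 and 0.01 over all genes tested. MASP1, a protease of the lectin branch of the cascade, was 1.05 higher in HFD than in ND, with an adjusted p of 0.077 by limma, while MBL2, a lectin of the same branch, had -0.50 (adjusted p 0.120) and SUSD4, a complement inhibitor, -0.37 (adjusted p 0.243) there and -0.42 in ND+EV against ND (adjusted p 0.562). These 3 genes are named after their values were seen.

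C7 differed in sign from the 4 other terminal components measured in both HFD against ND and ND+EV against ND. In HFD against ND, where C7 was 1.25 higher, C8A had -0.44 (adjusted p 0.101 by limma), C8B -0.20, C8G -0.28 and C9 -0.11, and in ND+EV against ND, where C7 was 0.39 higher, they had -0.02, -0.20, -0.21 and -0.13. In HFD+EV against HFD, where C7 had -0.48, all HFD+EV arrays of C8A were above both HFD arrays, as in 12.2% of all probe sets. C8A was 0.51 higher there (adjusted p 0.623 by limma), and C8B had -0.06, C8G 0.09 and C9 -0.15. These 4 probe sets are dim, with mean log2 signals of 3.99 for C8B to 4.42 for C8G against a filter at 3.63, and C5 (3.25) and C6 (3.30), the partners of C7 in the first steps of pore assembly, lay below that filter. CLU, clusterin, which binds the soluble C5b-7 complex and keeps it out of membranes, was 1.55 higher in HFD than in ND (SE 0.52; adjusted p 0.114 by limma) and had -0.81 in HFD+EV against HFD (adjusted p 0.915), the same signs as C7 in both. The 2 comparisons share the HFD arrays.

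CD59 acts on the pore itself. CD46, CD55 and CR1, which act on the convertases upstream, and C2, C3, CFB and VTN were not analysed here, since no probe set carried their symbol alone. CFD, the protease of the alternative pathway, had differences of 0.20 in ND+EV against ND and -0.06 in HFD against ND. Of the 6 inhibitors measured, CD59 included, 4 were higher in HFD than in ND and 4 had ND+EV above ND. The highest r of CD59 with a complement gene named here was that with C1QB (0.833). C1QB ranked 193 of 9737 genes by r with CD59, so this r was not particular to complement. Both genes were lowest on ND replicate 1, and their r was not computed without that array.

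**Figure D4:**
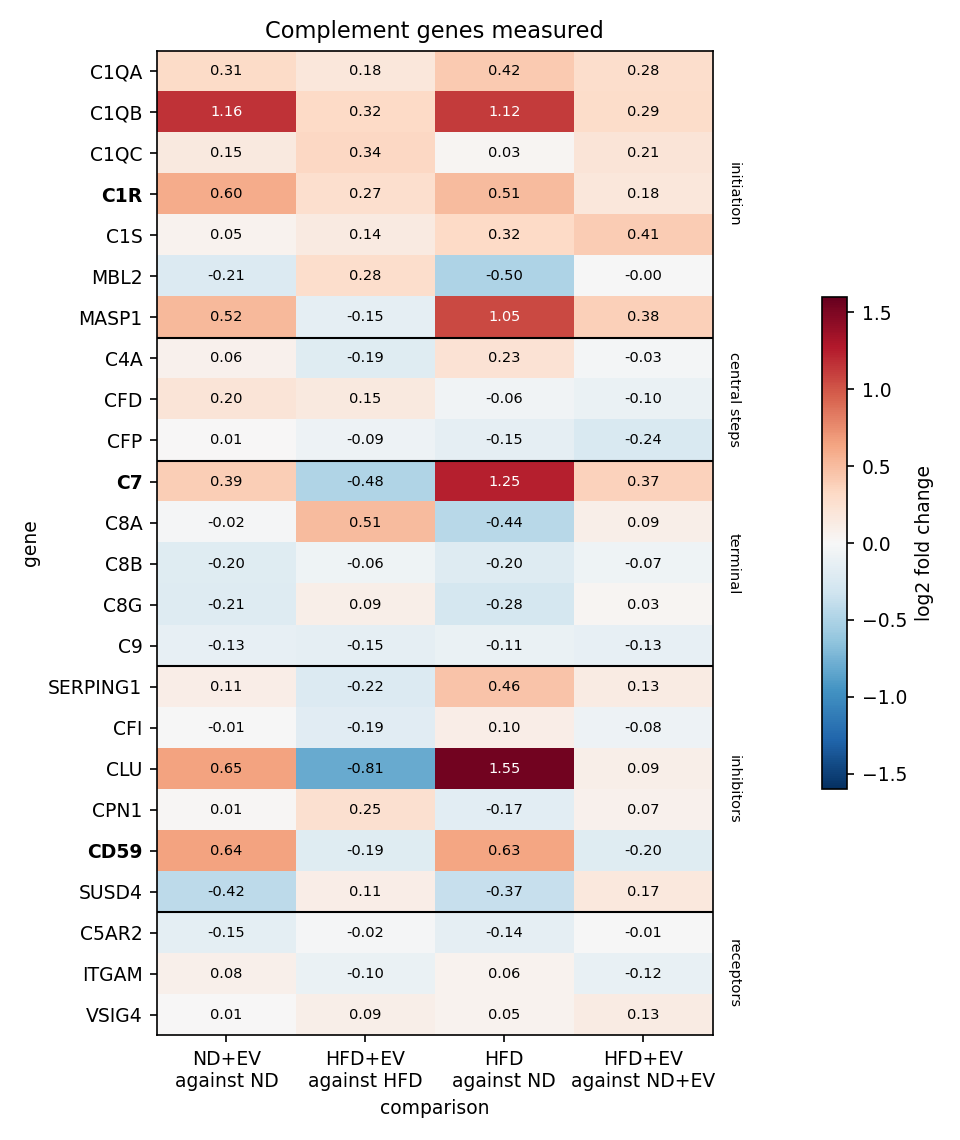
Log2 fold change (colour and number in each cell) of the 24 complement genes measured (y axis, ordered by role, with C1R, C7 and CD59 in bold) in 4 comparisons (x axis). In HFD against ND, C7 at 1.25 stands among terminal components between -0.44 and -0.11, and CLU at 1.55 has the highest value.

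Fibroblast markers had the sign of C1R, C7 and CD59 in some comparisons and not in others. All 9 fibroblast genes measured were higher in HFD than in ND, with a median of 0.60 and 0 passing the adjusted threshold, and 8 of 9 had ND+EV above ND, with a median of 0.24, the comparisons in which C1R, C7 and CD59 were all higher. In HFD+EV against HFD 8 of 9 were lower (median -0.17), where C1R was 0.27 higher, and for HFD+EV set against ND+EV 8 of 9 were higher (median 0.18), where CD59 had -0.20. The mean log2 signal of these genes ran from 7.99 to 8.64 in HFD+EV hearts, from 8.37 to 8.85 in HFD hearts, from 8.14 to 8.29 in ND+EV hearts and from 7.39 to 8.31 in ND hearts. It was lowest on ND replicate 1, where C1R, C7 and CD59 also had their lowest values, and highest on HFD replicate 2, where C7 had its highest. These extremes were not particular to fibroblast genes, nor shared by every marker list. The score of 6 smooth muscle and pericyte genes, the mean log2 deviation from each gene's mean over all arrays, was also highest on HFD replicate 2 (0.52) and lowest on ND replicate 1 (-0.48). On ND replicate 1 the cardiomyocyte (7 genes, -0.29), adipocyte (-0.36) and macrophage (-0.20) scores were lowest too. The endothelium score was lowest on ND replicate 3 (-0.24) and highest on ND replicate 2 (0.25). The lymphocyte score was 0.14 on ND replicate 1, and the mesothelium score was lowest on HFD replicate 1 (-0.43). Of the cardiomyocyte genes 5 of 7 were higher in HFD than in ND and 6 of 7 had ND+EV above ND, and of the smooth muscle and pericyte genes 5 of 6 and 2 of 6. The part of cell content in the C1R, C7 and CD59 values was not tested.

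Atrial muscle genes (NPPA, MYL7, MYL4 and SLN) also stood high on HFD replicate 2. Their score was 1.44 there and 0.25 on HFD replicate 1, from -0.35 to -0.20 in HFD+EV hearts, from -0.17 to 0.08 in ND+EV hearts and from -0.80 to 0.26 in ND hearts. All 4 were higher in HFD than in ND, with a median of 1.31 and 0 passing. The part of this in the C7 value was not tested, and the C7 difference without that array is the 0.74 given above. Macrophage markers, of which 5 were measured, had scores of -0.01 to 0.12 in HFD+EV hearts, -0.16 to 0.04 in HFD hearts, -0.10 to 0.20 in ND+EV hearts and -0.20 to -0.01 in ND hearts, which overlap between every pair of groups.

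**Figure D5:**
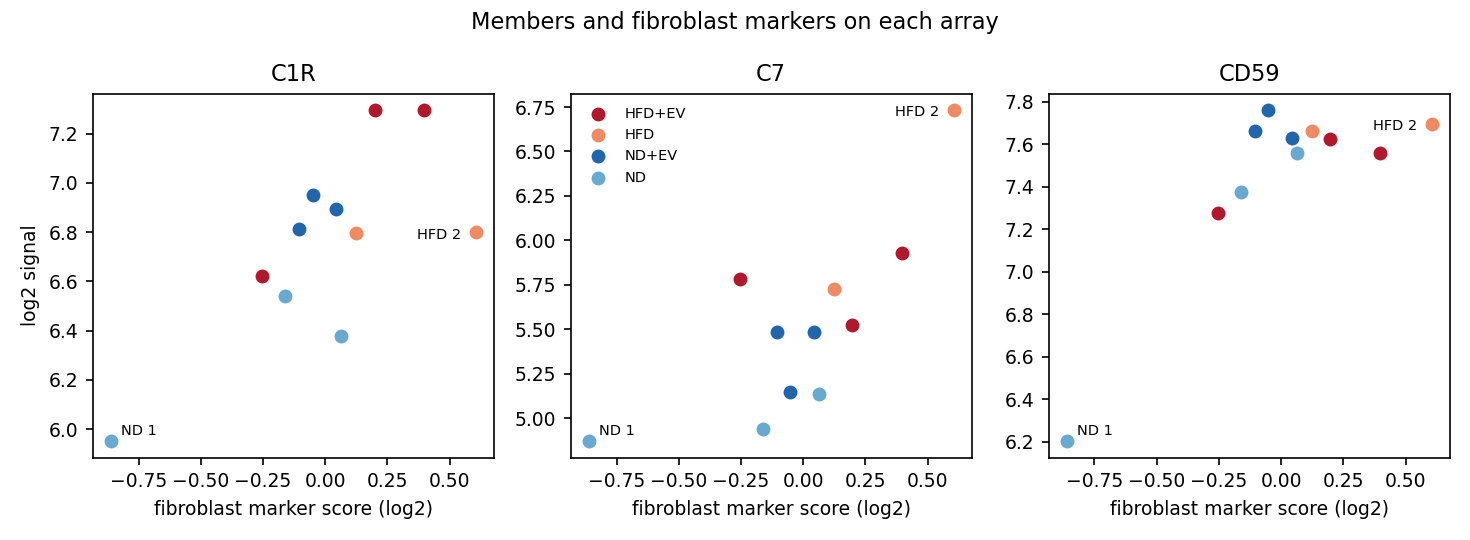
Log2 signal of C1R, C7 and CD59 (y axis) against the fibroblast marker score (x axis, mean log2 deviation of 9 genes from their mean over all arrays), 1 point per array coloured by group. ND replicate 1 has the lowest score (-0.86) and the lowest value of each gene, and HFD replicate 2 has the highest score (0.60) and the highest C7.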

How the data were processed

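The authors deposited 1 table of normalized log2 signal per probe set, from Affymetrix whole-transcript arrays hybridised with 50 ng of total RNA per sample, per the labels' protocols. Transcriptome Analysis Console is named in the submitters' processing notes, with no version. For the summary and normalization method, the annotation version and the genome build, the sources used here give nothing. Values ran from 2.14 to 14.02, with array medians from 4.36 to 4.48. No probe-level intensity or detection call was used, and the number of arrays limits the precision.

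Gene names are those of the platform annotation and can be out of date: 13157 probe sets had 1 symbol, 523 several and 13878 none. Of those with 1 symbol, 12841 matched a current gene table, which updated 7. All values were shared with another probe set for 1239 probe sets, C1R, C7 and CD59 not among them.

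Probe sets in the dimmest 25% by mean over all arrays (under 3.63) were dropped, and 20668 remained. The fit used limma 3.58.1 under R 4.3.3 (lmFit, then eBayes with defaults, 1 mean per group, 11 arrays, 7 residual and 3.62 prior degrees of freedom) for 7 comparisons. Tests were two-sided, and p-values were adjusted over all 20668 by Benjamini-Hochberg. A gene's value is that of its brightest probe set. On simulated data of 20668 probe sets, the share recovered of those changed by a fold of 2 was 59.7% in ND+EV against ND and 56.7% in HFD against ND. By a fold of 1.5 it was 20.9% and 16.4%. The noise was drawn independently for each probe set and array, and 66 other probe sets per comparison were changed by a fold of 4. Real arrays can share deviations over many probe sets, so these shares need not hold for them. Correlations used 100000 permutations over all 11 arrays without regard to group, two-sided (scipy 1.17.1).

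The genes and lists were chosen with earlier results of these data known. The genes named were C1R, C7 and CD59, fixed complement partners, any other complement gene with an adjusted p under 0.05 (there was none) and, for each of the 3, the 5 genes with the highest r. Alternatives were other normalizations, filters, eBayes settings, array weights, fewer arrays and a replicate block. MASP1, MBL2 and SUSD4 were added after their values were seen. The replicate numbers were taken as names only, since no label ties them to a shared animal, batch or day.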

Additional observations from a re-analysis of the deposited data

Results flagged for a closer look

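The 24 complement genes measured were screened for comparisons that ran opposite ways on every array. CD59 was set aside for a closer look because its 2 EV comparisons did so. All ND+EV arrays were above all ND arrays, and all HFD+EV arrays were below both HFD arrays. In the same way all HFD arrays were above all ND arrays, and all HFD+EV arrays were below all ND+EV arrays. Of all probe sets, 6.32% had ND+EV wholly above ND and 11% had HFD+EV wholly below HFD. HFD was wholly above ND in 19.4%, and HFD+EV wholly below ND+EV in 6.93%. The share with all of these splits at once was not counted. The difference of the EV effects was -0.83 (adjusted p 0.615 by limma), and -0.41 without ND replicate 1. The gaps between the nearest arrays were 0.07 for ND+EV over ND, 0.04 for HFD+EV under HFD, 0.11 for HFD over ND and 0.0046 for HFD+EV under ND+EV, each smaller than the SD of 0.19 among the HFD+EV arrays. No group held 4 or more arrays, so no array was tested as an outlier within its group.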

How the results depend on the processing

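The 3 genes were recomputed in 7 comparisons under 10 other settings and 11 that leave out 1 array, except that the groups compared alone gave only the 4 comparisons between pairs of groups. Calls changed for C7, which crossed the threshold in HFD against ND with each array centred on its median (1.33, adjusted p 0.048 by limma), with the lowest 50% of probe sets left out (1.25, 0.048) and with a replicate block (1.32, 0.028), against 1.25 and 0.057 as reported. In the mean diet effect C7 passed with centring (0.87), the lowest 50% left out (0.81), array weights (0.81) and the replicate block (0.85). Leaving out 1 array gave 0.74 to 1.75 for C7 in HFD against ND, with a pass without HFD+EV replicate 1, HFD replicate 1 or ND replicate 2, and 0.56 to 1.06 in the mean diet effect, with a pass without HFD+EV replicate 1 (adjusted p 0.040) or ND replicate 2 (0.043). C7 spanned 0 in HFD+EV against HFD (-0.99 to 0.020, above 0 without HFD replicate 2) and in the mean EV effect (-0.30 to 0.20). CD59 changed sign once, in the mean diet effect after cyclic loess (-0.0004). C1R kept its direction and its side of the threshold under every setting run. The cause of these moves was not tested. The replicate block changed no other call of the 3 genes. Deviations from the group means had r from -0.103 to 0.335 for the 15 pairs of arrays of different groups with the same number. Of these 13 were above 0 and 5 over 0.1 (mean 0.088). For different numbers 10 of 30 were above 0 and 5 over 0.1 (mean -0.044). On average 10 of 11 arrays, all but HFD replicate 2, had a higher r with their own number than with others. Deviations sum to 0 within a group, so a higher r for some pairs forces a lower r for others. These counts are therefore not independent and cannot decide whether arrays of 1 number share anything.

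Probe sets called in HFD against ND numbered 152 as reported, 0 under cyclic loess, quantile normalization, no filter, eBayes with trend and robust, array weights, the groups compared alone or without ND replicates 1 and 3, 938 with the replicate block, and 0 to 1353 without 1 array. In the mean diet effect 242 were called as reported, 0 under cyclic loess, quantile normalization, no filter, trend and robust or without ND replicates 1 and 3, 581 with centring, 463 with the lowest 50% left out, 1665 with array weights, 985 with the replicate block, and 0 to 1394 without 1 array. In HFD+EV against ND+EV 10 were called with array weights, 2 without ND replicates 1 and 3, and 0 to 2 without 1 array. Without 1 array the counts were 0 to 2 in ND+EV against ND and 0 to 1 in HFD+EV against HFD, in the mean EV effect and in the difference of the EV effects. The median of the complement genes moved to 0.37 in HFD against ND and to 0.26 in the mean diet effect with the lowest 50% left out, which tests fewer of the dim genes, and with no filter it was -0.02 in HFD against ND, -0.03 in the mean diet effect and 0.06 in the difference of the EV effects, each opposite in sign to the value with the filter. The mean of all probe sets of a gene gave no other value, since each of the 3 genes has 1 probe set. With 2 HFD arrays, leaving one out leaves a lone array that is assumed to vary like the other groups.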
